A study of Mus musculus with 2 samples.

Results

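The smooth muscle and fibroblast miRNAs mmu-miR-143-3p, mmu-miR-145a-5p, mmu-miR-145a-3p, mmu-miR-214-3p, mmu-miR-199a-5p, mmu-miR-199a-3p, mmu-miR-199b-5p, mmu-miR-1a-3p, mmu-miR-133a-3p and mmu-miR-133b-3p (mmu- for mouse, omitted in most places below) were read out in isolated mouse colonic epithelium, a preparation that can carry mesenchymal cells along. They were picked by name, and all 10 had a probe among the 1900 mouse miRNA probes of the array. The miR-199a-3p probe also names miR-199b-3p and was counted once. Total RNA of colonic epithelial cells from C57BL/6 mice aged 8 weeks was labelled with the dye Hy5 and hybridised to 1 array for untreated mice (control, n = 1) and 1 array for mice with colon inflammation (DSS, n = 1). The inflamed mice had drunk 2.5% dextran sulfate sodium, a polysaccharide that damages the colonic lining, for 5 days. Not given in the sources used here were the way the epithelium was isolated and whether cells of several mice were pooled. With 1 array a group no difference was tested, and none has a p-value or an error between animals.

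miR-143 and miR-145 are processed from one primary transcript that smooth muscle and other mesenchymal cells make in large amounts. miR-1 and miR-133 are muscle miRNAs that share transcripts and are driven by muscle transcription factors. miR-214 and the miR-199a of the gene Mir199a-2 are processed from the Dnm3os transcript, which is known from fibroblasts and the developing mesenchyme. miR-199a is also encoded by Mir199a-1 on chromosome 9, and miR-199b has a gene of its own. In total RNA, fewer mesenchymal cells and less miRNA per mesenchymal cell cannot be told apart.

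Mature sequences of 4 of the 10 members and of 9 of 16 related miRNAs (other arms, paralogs and further muscle miRNAs) were matched in the RefSeq sequence table used here (build GRCm38.p6). The sequences below are those of 4 measured members, of the arm paired with miR-214-3p and of miR-206-3p, 5′ to 3′, with the seed (bases 2 to 8, which pair with target mRNAs) in capitals.
miR-133b-3p: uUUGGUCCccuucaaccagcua
miR-199a-3p and miR-199b-3p: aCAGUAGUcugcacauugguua
miR-199a-5p: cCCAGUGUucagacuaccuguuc
miR-214-3p: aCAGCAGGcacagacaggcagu
miR-214-5p: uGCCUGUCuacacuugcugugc
miR-206-3p: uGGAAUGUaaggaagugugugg
miR-199a-3p and miR-199b-3p were identical in all bases, so their shared probe cannot separate the genes Mir199a-1 (chromosome 9), Mir199a-2 (chromosome 1) and Mir199b (chromosome 2). The seeds of miR-199a-3p and miR-214-3p are different. miR-206-3p, a skeletal muscle miRNA known to share its seed with miR-1, is shown because it separates striated from smooth muscle.

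The hairpins of miR-199a-2 and miR-214 lie on the plus strand of chromosome 1, at chr1:162217814-162217923 and chr1:162223368-162223477, with 5444 bases between them. They are shown because both arms of each were read by a probe, with the mature arms in capitals.
Mir199a-2: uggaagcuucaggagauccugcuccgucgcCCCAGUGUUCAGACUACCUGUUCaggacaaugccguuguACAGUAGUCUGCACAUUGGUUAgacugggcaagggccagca
Mir214: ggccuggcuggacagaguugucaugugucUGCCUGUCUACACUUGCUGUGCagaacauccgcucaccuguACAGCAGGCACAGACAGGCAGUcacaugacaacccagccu
miR-133b-3p is encoded at chr1:20682834-20682855 on the plus strand, with 3686 bases between its hairpin and that of miR-206.

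Mesenchymal miRNAs were present in both preparations, and none differed by 2-fold between them after quantile normalisation. A miRNA was called measured where its spot exceeded the mean of the blank spots by 2 SD, which set the limit at an intensity of 99.6 for the control and 130.9 for the DSS array. By this rule 7 of the 10 members were measured on both arrays, against 52.4% of all probes. miR-199b-5p passed in the control alone, and miR-145a-3p and miR-1a-3p passed on neither array. All 7 also exceeded the mean of the brightest set of negative control spots, which was 105.8 (control) and 137.6 (DSS). Only 5 of them (miR-143-3p, miR-145a-5p, miR-214-3p and both miR-133 members) exceeded every single negative control spot on both arrays. On the DSS array miR-133a-3p (156.7) and miR-133b-3p (158.9) did so narrowly, as the brightest negative control spot was 156.5. The share of all probes passing these negative control rules is not given, so the counts do not set the members apart from other miRNAs. miR-199a-5p exceeded every negative control spot in the control (115.5) but not under DSS (150.4), and miR-199a-3p did so on neither array. The spots of miR-199a-3p (106.5 and 138.1) lay barely above the mean of the brightest negative control set. The values of these miR-199a arms are the least certain of the 7, those of miR-199a-3p most of all.

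**Figure D1:**
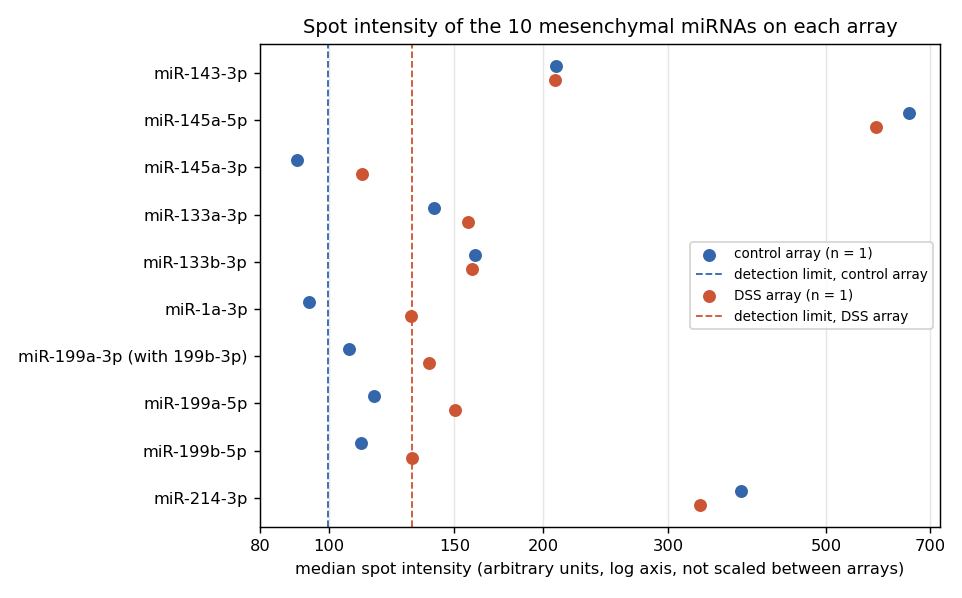
Median spot intensity of each of the 10 members (log axis, arbitrary units, not scaled between arrays) on the control array (blue) and the DSS array (red), 1 spot a point; dashed lines are the detection limits of 99.6 (control) and 130.9 (DSS). miR-145a-5p, miR-214-3p and miR-143-3p lie far to the right of both limits, both points of miR-145a-3p lie to the left of their own array's limit, and the DSS points of miR-1a-3p and miR-199b-5p lie at the limit of the DSS array.

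mmu-miR-145a-5p, known for keeping smooth muscle cells in their contractile state, had the brightest spot of the group. Its intensity was 654 (control) and 588 (DSS), brighter than 94.6% and 95.7% of the other miRNA probes. In the authors' deposited table, where blanks are subtracted and each array is scaled to a median of 25, it was 316 for the control and 367 for DSS. The normalised log2 values were 8.98 and 9.43, a difference of 0.44 (DSS minus control, 1.36-fold). Of the 995 miRNAs measured on both arrays, 6.03% had a larger positive difference. The direction depended on the scaling: the difference was −0.14 when the medians of the arrays were equalised, −0.13 when their 75th percentiles over all probes were, −0.23 unscaled and −1.20 relative to the spike control spots.

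mmu-miR-143-3p, which comes from the same transcript and is reported to restrain the transcription factor Elk1 in smooth muscle, had nearly equal spots of 209 (control) and 208 (DSS). In the authors' table it stood at 65.3 and 67.8. The normalised difference was 0.06, and under the same 4 scalings it was −0.15, −0.14, −0.24 and −1.21. No blank spot was as bright as miR-143-3p or miR-145a-5p on either array. The difference of miR-145a-5p exceeded that of miR-143-3p by 0.38 after quantile normalisation and by 0.16 in the authors' table. Over the blank mean and unscaled, DSS was 0.742 times the control for miR-143-3p and 0.831 times for miR-145a-5p. The gap was 0.01 in unscaled values that had been background-corrected with the offset of 50. Any scaling of those corrected values by 1 factor per array leaves the gap there. In the remaining processings other than the authors' table it ran from 0.36 to 0.42, or was 1.23 with the files' background subtracted. All rest on the same pair of spots.

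Values around the miR-145a-5p spot differed between the arrays. The background value that the files give for it was 699 in the control, above the spot itself (107%), and 465 under DSS (79.1%). A background above its own spot was found for 125 of the 995 measured miRNAs in the control and 152 under DSS. For every member the background was high, from 66.1% of the spot (miR-199a-5p, DSS) to the 107% of miR-145a-5p. The background of miR-214-3p was 287 (control) and 237 (DSS), and no spot next to it exceeded 126 on either array. A high background was thus also found without a bright neighbour. The brightest spot next to miR-145a-5p, that of miR-714, was 1871 in the control and 292 under DSS. Subtracting the files' background gave miR-145a-5p a difference of 1.31, the only member past 2-fold under that setting, where 4.22% of all miRNAs passed it. The part of the neighbouring spot in these values was not tested. miR-143-3p also had a bright neighbour, miR-770-3p, at 1255 in the control and 713 under DSS, and subtracting the background left it at 0.08.

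The other arms of this group were dim. miR-143-5p, the passenger strand of miR-143, had spots of 117 (control) and 133.1 (DSS), and a difference of −0.27. miR-145a-3p was not above the limit on either array, at 90.0 (control) and 111 (DSS), and 97.8% of the blank spots on the DSS array were brighter. miR-145b, a relative of miR-145a named by a probe of its own, had 137 and 152 and a difference of −0.11.

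The muscle miRNAs miR-133a-3p and miR-133b-3p, which are known to restrain muscle growth signals including serum response factor, were measured on both arrays. mmu-miR-133b-3p had spots of 161 (control) and 159 (DSS), and its values in the authors' table were 38.3 and 29.2. Its normalised difference of −0.23 was the lowest of the 7 members. It was below 0 in 13 of 14 processings, and 0.06 once the files' background was subtracted. mmu-miR-133a-3p had spots of 140 and 157, and 26.8 and 27.4 in the authors' table. Its difference was −0.05, and it was above 0 in the authors' table (0.03) and where 75th percentiles were taken over the 995 measured miRNAs (0.20). Both miRNAs are near-identical in sequence, so their probes can share signal and are not independent.

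miR-1a-3p, made from the same transcripts as miR-133a and known for promoting muscle differentiation, was not above the limit on either array. Its spot was 93.5 on the control array, where 39.8% of blank spots were brighter, and 130.3 on the DSS array, just below the limit of 130.9. miR-206-3p was likewise not above the limit, at 99.4 and 125.7. The heart and skeletal muscle miRNAs miR-208a-3p, miR-208b-3p and miR-499-5p gave spots of 88.1 to 94.5 in the control and 121 to 125 under DSS, so that 0 of the 4 striated muscle markers were measured. A spot below the limit leaves a low level possible.

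Among the remaining relatives of miR-1 and miR-133a, miR-133c was measured on both arrays (106 and 138, difference 0.04) and miR-133b-5p under DSS alone (94.7 and 135). miR-133a-5p, miR-1a-1-5p, miR-1a-2-5p, miR-1b-3p, miR-1b-5p and miR-206-5p were measured on neither. miR-133b-3p and its passenger strand miR-133b-5p thus stood on different sides of the limit on the control array.

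mmu-miR-214-3p, reported to target Ezh2, was bright on both arrays, with spots of 380 (control) and 332 (DSS). In the authors' table it was 162 and 166. The normalised difference was 0.22, and 15.8% of the 995 miRNAs had a larger one. It turned to −0.25 with equalised medians, −0.01 and −0.24 with the 75th percentiles of the 995 and of all probes, −0.34 unscaled and −1.31 relative to the spike controls. Its passenger strand miR-214-5p was close to the limit on the control array, at 100.4, where 4.91% of blank spots were brighter, and had 140 on the DSS array. Its normalised difference was 0.16. In the authors' table, which carries no offset, it was 4.38 in the control and 14.0 under DSS, a log2 difference of 1.68 from a control value near the lowest listed.

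miR-199a-5p and miR-199a-3p are the 2 arms of the hairpins Mir199a-1 (chromosome 9) and Mir199a-2 (chromosome 1), and miR-199a-5p is reported to target caveolin-1. The miR-199a-5p sequence is the same at both genes, so its probe cannot separate them. miR-199a-5p had spots of 116 (control) and 150 (DSS), 12.9 and 22.5 in the authors' table, and a normalised difference of 0.12. The shared miR-199a-3p and miR-199b-3p probe had spots of 107 and 138, 7.81 and 12.8 in the authors' table, and a difference of 0.03. Both were the only measured members whose spot over the blank mean was higher on the DSS array before any scaling, 28.6 against 22.9 for miR-199a-5p and 16.3 against 13.9 for miR-199a-3p. Spots named as holding no probe also rose over the blank mean before any scaling, from a mean of 2.09 (control) to 7.14 (DSS). Negative Control 1 rose from 4.31 to 15.8 and Negative Control 2 from −3.93 to 2.23. Negative Control 3 fell from 13.2 to 9.58. A higher DSS value over the blanks was thus not particular to the miR-199a arms. Relative to the spike controls miR-199a-5p and miR-199a-3p turned to −0.82 and −0.87, and miR-199a-3p was at −0.02 with the files' background subtracted.

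In the authors' table the differences of these dim arms were 0.81 for miR-199a-5p and 0.71 for miR-199a-3p, and that of miR-214-3p was 0.03. Normalised by quantiles with the offset, the order was the opposite, with miR-214-3p above both. In the authors' table the differences of all 995 miRNAs fell with brightness. In 4 classes by normalised brightness their medians were 0.61 in the dimmest, then 0.32, 0.15 and, in the brightest, −0.13. miR-199a-3p was in the dimmest class, miR-199a-5p in the next and miR-214-3p in the brightest. Across processings miR-214-3p minus miR-199a-5p ran from −0.77 to 0.11, so no order between them held. mmu-miR-199b-5p had spots of 111 (control) and 130.7 (DSS), where it missed the limit of 130.9. After quantile normalisation it was at least 1.16-fold higher on the control array, from its normalised value against the lowest value measured on the DSS array. Neither the bound nor the direction held across scalings: the difference between both spots was −0.22 with quantiles, −0.03 with equalised medians, −0.02 with 75th percentiles of all probes, −0.12 unscaled, 0.22 with 75th percentiles of the 995 measured miRNAs and 0.003 with the files' background subtracted. On the DSS array 6.47% of blank spots were brighter than miR-199b-5p.

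Of the 7 members measured on both arrays 5 were higher on the DSS array after quantile normalisation, against 48.5% of all 995 miRNAs, but 2 of 7 were higher unscaled (39.3% of all), with equalised medians (55% of all) and with equalised 75th percentiles over all probes (56.2% of all), and 0 relative to the spike controls (0.101% of all). The count was again 5 with 75th percentiles equalised over the 995 (75% of all), cyclic loess (47.8%), offsets of 0 and 16 or no background correction (48.5% each), subtraction of the blank mean or quantiles over the 995 alone (50.2% each) and subtraction of the files' background (49.4%). Their median difference was 0.06, against −0.003 for all 995. The differences ran from −0.23 to 0.44, and the central 95% of all miRNAs ran from −0.76 to 0.65, so each member lay inside it. None of the 7 was 2-fold different, where 1.51% of all miRNAs were. Relative to the spike controls 5 of the 7 were at least 2-fold lower, along with 55.2% of all miRNAs, whose median there was −1.02. Of the 7, 6 were higher in the authors' table (63.9% of all), with a median of 0.05 against 0.21 for all, and none was 2-fold different there (13.1% of all).

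**Figure D2:**
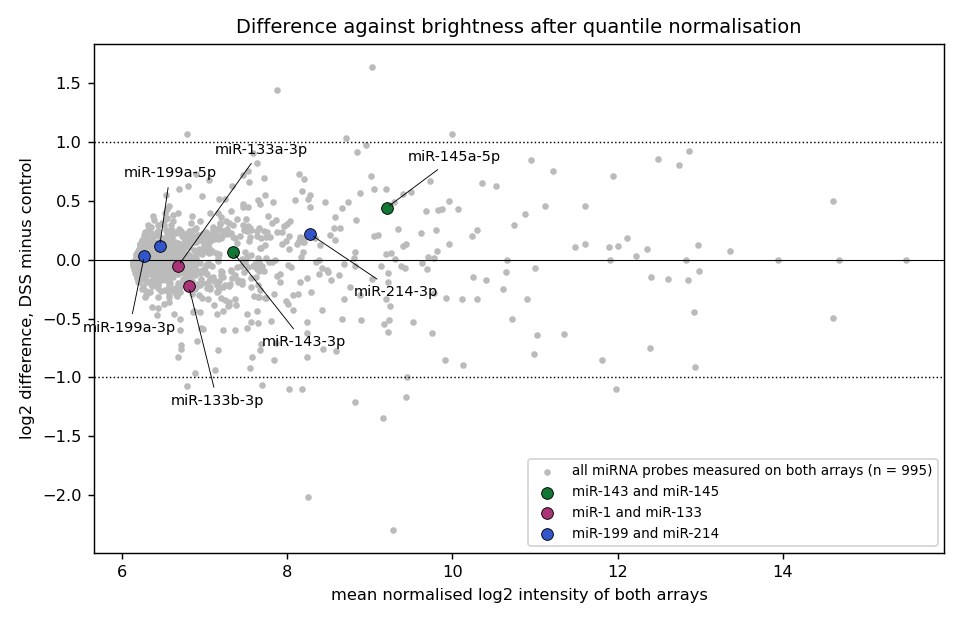
Log2 difference, DSS minus control (y axis), against the mean normalised log2 intensity of both arrays (x axis), for the 995 miRNA probes measured on both arrays (grey) and the 7 members among them, coloured by group; dotted lines mark 2-fold. All 7 members lie between the dotted lines and within the cloud of the other probes.

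Where the members stood relative to the other miRNAs turned with the kind of scaling. Under quantile normalisation the members' median lay 0.06 above that of all 995 miRNAs. Under every scaling of the values with offset 50 by 1 factor per array, spike controls included, it lay 0.18 below. In the authors' table it lay 0.16 below. Unscaled, the median difference of all miRNAs itself changed with brightness: in 4 classes of about equal size it was 0.08 in the dimmest, then −0.01, −0.13 and, in the brightest, −0.50. In the brightest class, miR-145a-5p (−0.23) and miR-214-3p (−0.34) were above that median of −0.50. In the class below it, miR-143-3p (−0.24) and miR-133b-3p (−0.35) were under the median of −0.13. In the next, miR-199a-5p (0.14) was above −0.01 and miR-133a-3p (−0.14) under it, and in the dimmest miR-199a-3p (0.10) was above 0.08.

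**Figure D3:**
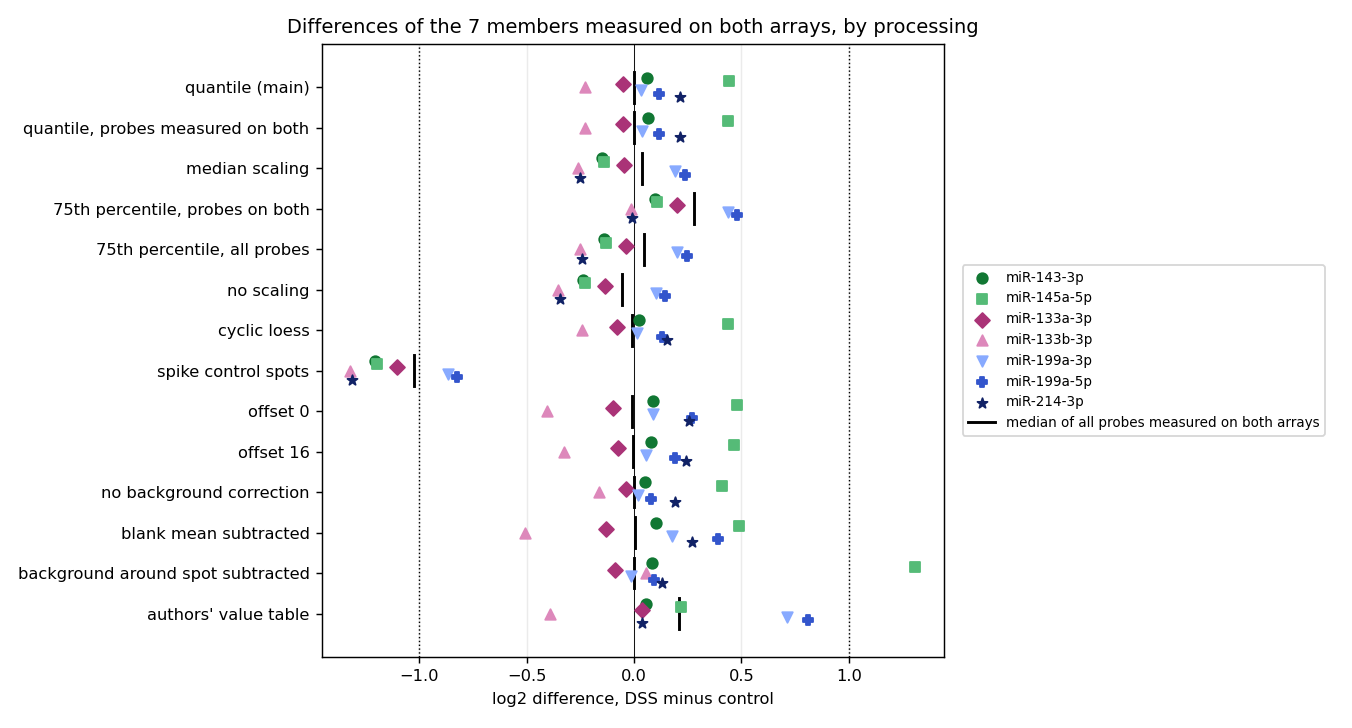
Log2 difference, DSS minus control (x axis), of the 7 members measured on both arrays (coloured symbols) under each of 14 processings (rows); the black bar is the median of all 995 miRNAs under that processing and dotted lines mark 2-fold. Most symbols stay near the bar, all 7 shift below 0 with scaling to the spike control spots, and miR-145a-5p reaches 1.31 where the background around each spot was subtracted.

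The miRNAs nearest in both normalised values, by Euclidean distance over the 2 arrays, were found for the brightest measured member of each group. Nearest to miR-145a-5p were miR-296-5p (distance 0.04, difference 0.44), miR-3968 (0.12, difference 0.60) and miR-5130 (0.12, difference 0.49). Nearest to miR-214-3p were miR-3572-5p, miR-3620-5p and miR-6912-5p, with differences of 0.18, 0.15 and 0.19. Nearest to miR-133b-3p were miR-7674-5p, miR-582-3p and miR-6983-5p, with differences of −0.21, −0.19 and −0.15. With 2 arrays this likeness says no more than that the spots were equally bright on each.

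Markers of other cell types were set beside the mesenchymal values. Of 9 colonic epithelial miRNAs, 8 were measured on both arrays and miR-141-3p under DSS alone. miR-192-5p, miR-194-5p, miR-200a-3p, miR-200b-3p, miR-200c-3p and miR-429-3p exceeded every negative control spot on both arrays, so miRNAs that define the labelled tissue were present. miR-215-5p in the control (110.8) and miR-375-3p under DSS (147.6) lay below the brightest negative control spot of that array, 111.1 and 156.5. The summed value of the 8 in the authors' table was 531 in the control and 754 under DSS, 1.42-fold. The summed value of the 7 mesenchymal members was 629 and 693, 1.10-fold. Over blanks and unscaled the same sums were 944 and 957 (1.01-fold) for the epithelial list, and 1117 and 880 (0.788-fold) for the mesenchymal members. The median normalised difference was 0.33 for the 8 epithelial miRNAs and 0.06 for the 7 mesenchymal members. Of the 8 epithelial miRNAs, 7 were higher on the DSS array after quantile normalisation, against 48.5% of all 995. miR-145a-5p alone made up most of the mesenchymal sum, with 562 (control) and 467 (DSS) over blanks. Probes differ in how brightly they bind, so neither the sums of different lists nor the spots of different members rank them by abundance.

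Leukocyte markers were measured on both arrays for 3 of 5 probes, and their sum in the authors' table was 28.8 in the control and 109.3 under DSS, 3.80-fold. Over blanks and unscaled the same sum differed 2.72-fold, and the median normalised difference of the 3 was 0.24. Under DSS most of that sum was miR-150-5p, a lymphocyte miRNA, at 63.4 against 7.68 in the control. The control spots of miR-150-5p (106.3) and miR-223-3p (110.1) lay below the brightest negative control spot (111.1). Under DSS the spots of miR-223-3p (152.1) and miR-342-3p (149.9) also lay below the brightest negative control spot there (156.5). The level of the list is therefore uncertain on both arrays. From the same list, miR-142a-5p was measured under DSS alone (spots of 89.3 and 141.7, normalised difference 0.45). miR-142a-3p was measured on neither array (97.9 and 124.4, normalised difference −0.14). Red cell markers were measured for 2 of 3 and summed to 49.2 and 103.3, 2.10-fold, and 1.501-fold over blanks and unscaled. The median normalised difference of these 2 was 0.46. Of 2 endothelial probes, that of miR-126a-3p passed the limit on each array, at 6.55 and 8.91 in the authors' table. Its spots of 104.3 (control) and 133.1 (DSS) lay below the mean of the brightest negative control set, 105.8 and 137.6. Of 4 neural probes, miR-129-5p was measured on both arrays (spots of 113 and 139), miR-128-3p under DSS alone (90.7 and 131.1), and miR-124-3p and miR-9-5p on neither. The part of a change in cell makeup in the mesenchymal values was not tested.

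**Figure D4:**
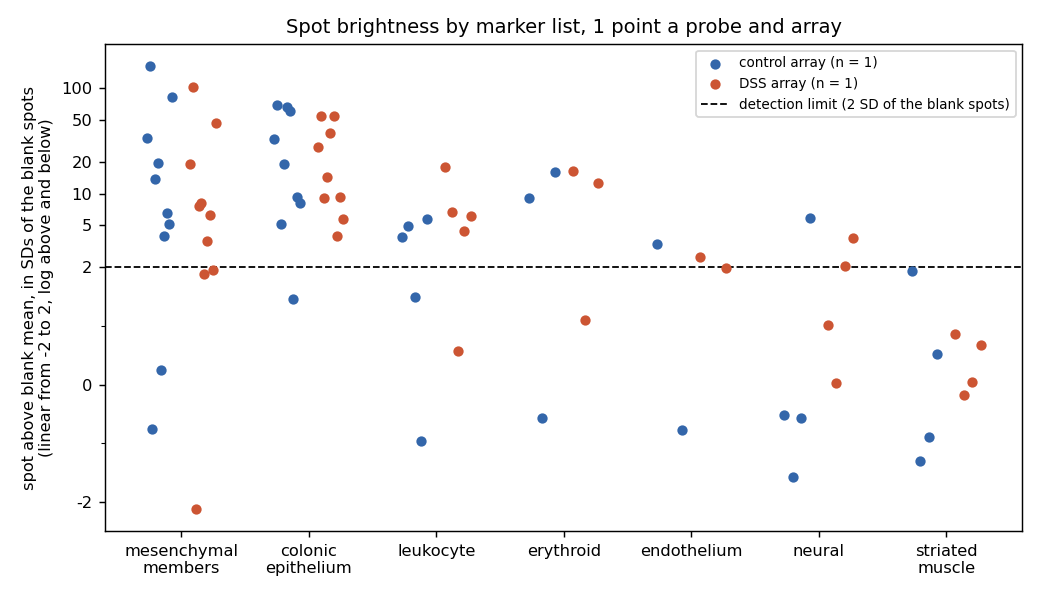
Spot brightness above the blank mean in SDs of the blank spots (y axis, linear between −2 and 2 and log beyond), 1 point a probe, on the control (blue) and DSS (red) array, by list; the dashed line is the detection limit of 2 SD. Mesenchymal members reach 161 SD (control) and 103 SD (DSS), colonic epithelial markers 69.6 and 54.0, and none of the 4 striated muscle markers passes the limit.

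Control spots bound what the dim members can show. Of the 896 blank spots, 7.25% (control) and 6.14% (DSS) passed the detection limit, and of the 174 spots named as holding no probe, 9.77% and 31.0% did. Of the negative control spots, 4 of 16 (control) and 13 of 16 (DSS) passed in the set Negative Control 1, 0 and 2 of 8 in Negative Control 2, and 8 and 5 of 8 in Negative Control 3. Passing the limit alone therefore does not set a dim member apart from the control spots. The spike control spots were brighter on the DSS array, with means of 36957 against 18067 for Spike Control 1 and 33842 against 18066 for Spike Control 2. The blanks of the DSS array were also brighter, with a trimmed mean of 121.8 against 92.7.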

How the data were processed

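Per the labels' protocols, total RNA was labelled with Hy5, and per the file headers each scanner file gives 1 median spot intensity and 1 background intensity per spot, combined from scans at 3 gains. Not given in the sources used here were the array's maker and the image software. The authors' deposited value table holds linear intensity values equal to the spot minus the trimmed blank mean, times 0.563 (control) or 0.787 (DSS), listed for 1070 and 1169 probes.

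Detection limits came from the 896 blank spots without the 45 highest and 45 lowest. One probe flagged as poor quality was not counted as measured. The background was corrected with normexp in limma 3.58.1 (R 4.3.3, offset 50, all spots), and log2 values of the 1900 miRNA probes were normalised by quantiles. The offset shrinks the differences of dim miRNAs. The code was checked on simulated arrays, both built from the control array with equal blanks and no difference in scale. That check does not cover the differences in blanks, spike controls and brightness between the real arrays. With 1 array a group nothing was tested, and the number of arrays limits precision.

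Members and lists were chosen with earlier results of these data known. All members were named, with 16 relatives, the marker lists and, for the brightest measured member of each group, the 3 nearest probes.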

Additional observations from a re-analysis of the deposited data

How the results depend on the processing

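No paired analysis was possible because each group holds 1 array, and leaving out an array would leave no comparison. The 7 members measured on both arrays were the same number with the limit at 3 SD and at the brightest negative control set. The share of all probes measured under these limits is not given. The number of members higher on the DSS array, 5 of 7 after quantile normalisation, was 2 with equalised medians, 2 with equalised 75th percentiles of all probes, 2 unscaled and 0 relative to the spike controls. Their median difference of 0.06 was −0.14, −0.13, −0.23 and −1.20 under these in turn. For all 995 miRNAs the median was 0.04, 0.04, −0.06 and −1.02. After quantile normalisation the number at least 2-fold different was 0 (1.51% of all miRNAs). It was also 0 at 1.5-fold, where the share of all miRNAs is not given, so that count says nothing particular to the members. At 2-fold the number was 5 relative to the spike controls (55.2% of all miRNAs). It was 1 with the files' background subtracted (4.22% of all), namely miR-145a-5p, whose control background exceeded its spot. With the other offsets, cyclic loess, no background correction, blank subtraction, quantiles over the 995 probes measured on both arrays and 75th percentiles equalised over these, 5 of 7 members were higher, and 6 in the authors' table. With 75th percentiles equalised over the 995, 75% of all miRNAs were higher too, and the members' median of 0.11 lay below that of all, 0.28. Brightness close to the blanks limits miR-199a-3p, miR-199a-5p, miR-199b-5p and miR-1a-3p.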
